A study of Mus musculus with 4 samples.

Results

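Small proline-rich proteins, encoded by the Sprr genes, were followed in Py-4-1 cells, a line of mouse hemangioendothelioma, a tumour of vessel-lining cells. The genes described are Sprr2a1 and Sprr2a2, which share the older name Sprr2a, with Sprr1a and Sprr1b. They were taken as every probe set whose platform annotation names any of these 4 genes, alone or together with another Sprr gene, which gave 4 probe sets of the 22626 for mouse transcripts on each array. A probe set with the suffix _a_at, which Affymetrix gives where the probes match several related transcripts, names Sprr2a1 and Sprr2a2. Another, 1439016_x_at, names Sprr2a1, Sprr2a2 and Sprr2a3, and its suffix marks a probe set in which some probes can also match other sequences. They are called the _a_at and the _x_at probe set below. Sprr1a is named by 1449133_at and Sprr1b by 1422672_at. The genes were selected on the difference between the groups that the _a_at probe set showed on these same 4 arrays, together with the nearest family members, so their group differences are described here without a test.

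The study set clones transfected with the pcDNA plasmid as controls against clones carrying pcDNA/Prox1, which the labels call stably Prox1-expressing. Prox1, a homeobox protein, directs endothelial cells to the lymphatic fate, and the title names invasion by kaposiform hemangioendothelioma as the subject. There were 2 control clones and 2 Prox1 clones, with 1 array of total RNA each, and all 4 came from the same tumour line. Clone, culture and array handling are all part of the spread inside a group, and each group stands for 2 clones of a single line.

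Sprr proteins are short, proline-rich precursors of the cornified envelope, the crosslinked protein shell of terminally differentiated keratinocytes and other squamous epithelia. Transglutaminases join them to loricrin, involucrin and other envelope proteins. Their genes lie side by side in the epidermal differentiation complex, together with the genes of loricrin, involucrin, filaggrin, the late cornified envelope proteins and many S100 proteins. Outside squamous epithelium, Sprr2a is known as a gene induced by gp130 cytokines and STAT3 in epithelial cells under stress, and Sprr1a as a gene induced in injured neurons and in stressed heart muscle.

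Intensities are on a linear scale in arbitrary units, and array medians lay between 163 and 179.9. As a measure of array background, 27 control probe sets for Bacillus genes were used, and the highest of them read 45.3 in control clone 1, 101 in control clone 2, 88.4 in Prox1 clone 1 and 97.5 in Prox1 clone 2. On these arrays, in the same order, 74.9%, 62.1%, 64.8% and 61.9% of the 22626 mouse probe sets exceeded it. Exceeding it was thus the usual outcome, most of all in control clone 1, where it was lowest. The single Prox1 probe set (1421336_at) read 62.4 and 44.3 in Prox1 clones 1 and 2, against 52.1 and 60.5 in their controls, so the array did not show more Prox1 transcript in the clones labelled as expressing it. It is not known here if that probe set lies within the transfected sequence, so the groups keep the names of their labels, control clones and Prox1-labelled clones. The cells carried endothelial transcripts, with 6 of 6 defining endothelial markers (Pecam1, Cdh5, Tek, Tie1, Kdr, Esam) above the highest Bacillus control on all 4 arrays. Vwf, another endothelial gene, exceeded it on 0 arrays, and 13 of the wider list of 18 endothelial genes did so on all 4. Of 8 defining epithelial markers 1 did so (Krt8), and of 6 markers of cornifying keratinocytes 1 (Lor).

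The Sprr genes occupy a single stretch of mouse chromosome 3, where the RefSeq table of assembly GRCm38.p6 lists 17 of them among 20 consecutive genes from Sprr2a1 to Sprr4. Promoter windows, 250 bases before to 50 after the annotated start, were available from RefSeq (GRCm38.p6) for 14 Sprr genes, all 4 described here included. The windows of Sprr2a1 (chr3:92215585-92215884, plus strand) and Sprr2a2 (chr3:92250397-92250696, plus strand) were identical over all 300 bases, and that of Sprr2a3 shared a run of 272 bases with them. The windows of Sprr1a (chr3:92485832-92486131) and Sprr1b (chr3:92438730-92439029) lie on the minus strand. They are shown because the Sprr2a, Sprr1a and Sprr1b probe sets gave different patterns, with Sprr2b (chr3:92316455-92316754, plus strand) as the nearest relative whose window holds the usual elements. Capitals mark matches to the motifs named below and, in Sprr2a1 and Sprr2b, an 18-base run that both share.
Sprr2a1: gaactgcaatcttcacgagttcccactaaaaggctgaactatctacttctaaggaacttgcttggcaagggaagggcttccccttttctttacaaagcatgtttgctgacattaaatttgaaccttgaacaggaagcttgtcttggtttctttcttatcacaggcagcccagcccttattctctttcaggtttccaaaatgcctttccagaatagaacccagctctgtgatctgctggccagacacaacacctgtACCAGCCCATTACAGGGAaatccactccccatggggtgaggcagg
Sprr2b: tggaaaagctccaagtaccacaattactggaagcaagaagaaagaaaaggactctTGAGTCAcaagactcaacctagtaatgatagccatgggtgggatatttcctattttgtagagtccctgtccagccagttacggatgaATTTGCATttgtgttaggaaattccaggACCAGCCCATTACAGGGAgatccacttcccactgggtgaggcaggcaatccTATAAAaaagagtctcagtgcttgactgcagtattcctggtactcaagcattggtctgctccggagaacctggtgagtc
Sprr1a: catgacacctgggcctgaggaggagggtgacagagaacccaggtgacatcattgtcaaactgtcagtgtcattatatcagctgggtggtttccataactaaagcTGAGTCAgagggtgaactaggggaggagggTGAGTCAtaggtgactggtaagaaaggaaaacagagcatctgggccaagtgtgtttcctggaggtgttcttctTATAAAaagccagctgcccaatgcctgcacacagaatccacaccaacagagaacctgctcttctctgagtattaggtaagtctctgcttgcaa
Sprr1b: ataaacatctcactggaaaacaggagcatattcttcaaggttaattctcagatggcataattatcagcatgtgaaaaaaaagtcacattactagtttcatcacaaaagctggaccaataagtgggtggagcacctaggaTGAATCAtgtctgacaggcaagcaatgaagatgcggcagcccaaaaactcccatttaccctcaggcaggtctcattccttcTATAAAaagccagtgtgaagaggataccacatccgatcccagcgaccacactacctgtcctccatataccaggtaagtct

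Motifs were searched on both strands as TGANTCA for AP-1, ATGCAAAT for the octamer bound by POU factors, TTCNNNGAA for STAT factors and TATAAA for the TATA box. The Sprr1a window held AP-1 matches at -146 and -116 and a TATA box at -43, counted from the annotated start to the first base of the match. Sprr1b held an AP-1 match at -111 and a TATA box at -30. The Sprr2a1 and Sprr2a2 windows held no match to any of the 4 motifs, and Sprr2a3 held a STAT match alone, at -249.

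The other Sprr2 windows were built alike. All 7 of them (Sprr2b, Sprr2d, Sprr2e, Sprr2f, Sprr2h, Sprr2i and Sprr2k) held an AP-1 match between -198 and -182, an octamer match between -112 and -108 and a TATA box at -29. Over the 14 Sprr windows, 9 held AP-1, 7 the octamer, 10 the TATA box and 2 the STAT motif, where 7.81%, 1.74%, 13.6% and 8.3% of 32851 windows of that length did. The run shared by Sprr2a1 and Sprr2b began at 6 bases after the annotated start in Sprr2a1 and at -80 in Sprr2b, so the annotated Sprr2a1 start lies 85 bases further upstream relative to it. On that alignment, the place that holds the TATA box in Sprr2b falls at 57 bases after the Sprr2a1 start, outside the window. The places of the Sprr2b AP-1 match and octamer fall at -110 and -23 in Sprr2a1, inside the window, and the letters of neither motif stand there. The windows of Sprr2a1 and of the other Sprr2 genes thus overlap only in part on this alignment, which rests on 1 short run, and a missing match says only that these letters are not in this window.

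**Figure D1:**
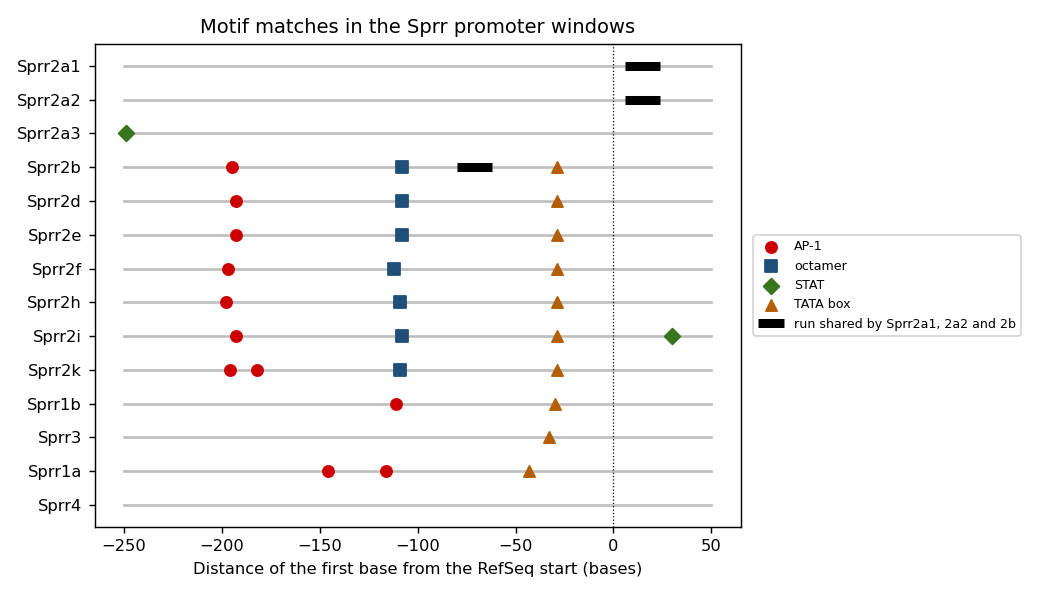
First-base positions of motif matches in the 14 Sprr promoter windows, as distance from the annotated RefSeq start in bases; grey lines are windows, symbols are motifs, and black bars mark the run shared by Sprr2a1, Sprr2a2 and Sprr2b. The 7 other Sprr2 windows have an AP-1, an octamer and a TATA match at nearly the same places, and the Sprr2a1 and Sprr2a2 windows have none.

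Sprr2a transcript detected by the _a_at probe set was at background in the control clones and clearly above it in the Prox1-labelled clones. Its intensity was 25.5 in control clone 1, 21.6 in control clone 2, 430.2 in Prox1-labelled clone 1 and 708 in Prox1-labelled clone 2. Both Prox1-labelled clones lay above both control clones, and the control clones were close together. Means were 23.6 ± 2.73 (SD, n = 2) in the control clones and 569 ± 197 in the Prox1-labelled clones.

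The control readings could not be told from array background, since 5 of 27 Bacillus control probe sets read higher in control clone 1 and 6 in control clone 2. In the Prox1-labelled clones 0 read higher, and the signal was 4.87 times the highest of them in clone 1 and 7.26 times in clone 2. Among all mouse probe sets of its array, the _a_at probe set stood at percentiles 18.0 and 15.5 in the control clones, and at 68.4 and 78.7 in Prox1-labelled clones 1 and 2. In a culture, more cells with the transcript and more transcript per cell cannot be told apart.

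The size of the difference depends on how background is treated. On the log2(intensity + 47) scale used throughout, with 47, the 25th percentile over the 4 arrays, as pseudocount, the Prox1-labelled clones were higher by 3.09 ± 0.27 (standard error of the limma fit). Without a pseudocount the log2 difference was 4.55, a ratio of 23.5. With 173, the median of all values, as pseudocount it was 1.89. With the highest Bacillus control of each control array put in place of its reading, the geometric mean of the _a_at probe set was 8.18-fold higher in the Prox1-labelled clones. Leaving out each clone in turn gave log2 differences from 2.76 to 3.42. Of the 11656 probe sets that passed the filter on low values, 0 had a larger log2 difference, with the pseudocount of 47 or without any. The _a_at probe set passed that filter only through the Prox1-labelled clones, and it was chosen on this same difference, so its rank restates the choice.

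The Prox1-labelled clones themselves differed by 1.65-fold at the _a_at probe set, clone 2 being the higher. On the log2 scale 2.78% of the probe sets tested lay as far apart or further between these clones. The control clones differed by 1.18-fold at background level.

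**Figure D2:**
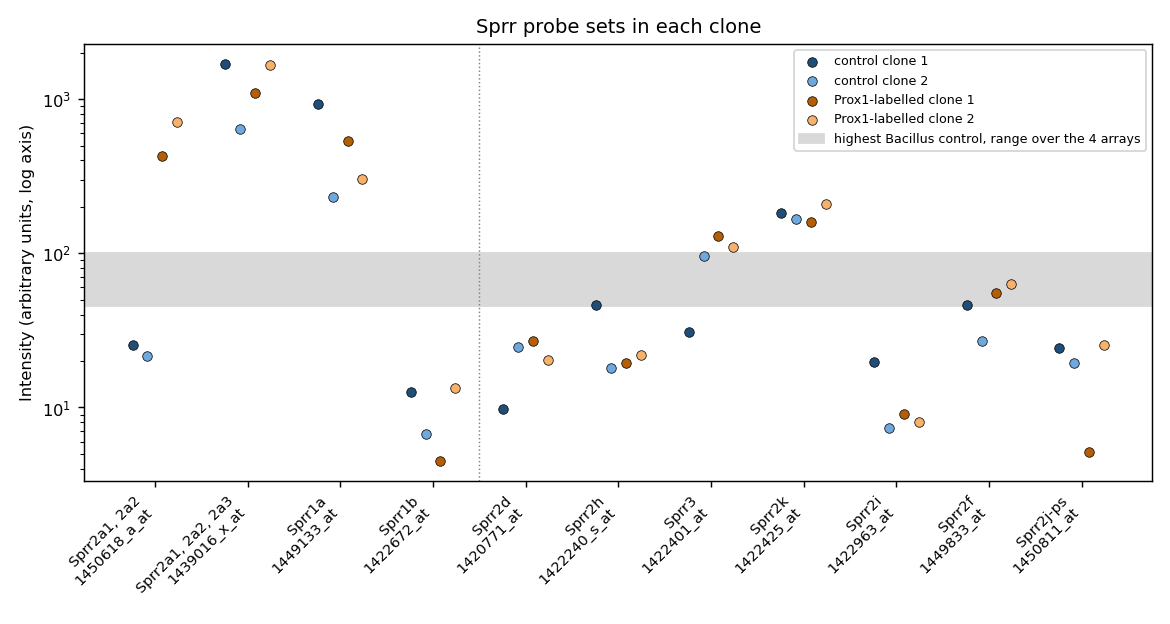
Intensity (log axis, arbitrary units) of the 11 Sprr probe sets, 1 point per clone; the 4 probe sets left of the dotted line are those described in detail, and the grey band spans the highest Bacillus control over the 4 arrays, 45.3 to 101. At the _a_at probe set both control clones lie under the band and both Prox1-labelled clones above it, while 1439016_x_at and Sprr1a lie above the band in all clones and Sprr1b under it in all.

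The other Sprr2a probe set, 1439016_x_at, did not separate the groups. It read 1693 in control clone 1, 637 in control clone 2, 1094 in Prox1-labelled clone 1 and 1658 in Prox1-labelled clone 2. Control clone 1 was the highest and control clone 2 the lowest, with both Prox1-labelled clones between them. Means were 1165 ± 747 (SD, n = 2) and 1376 ± 398, and the log2 difference was 0.35 ± 0.39, which turned to -0.32 without control clone 2 and stood at 1.03 without control clone 1. All 4 readings lay above the highest Bacillus control, at percentiles 76.3 to 90.7 of their arrays.

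Probe sets annotated to the same genes thus gave unlike readings. The signal of the _a_at probe set was 1.51% (control clone 1) and 3.4% (control clone 2) of that of the _x_at probe set, against 39.3% and 42.7% in Prox1-labelled clones 1 and 2. Since the brightness of different probe sets is not on a common scale, these percentages show unequal change and not relative amounts. The annotated genes differ only in that 1439016_x_at also names Sprr2a3. On the same arrays, the control probe set for the mouse B1 repeat (AFFX-MURINE_b1_at), a short interspersed element carried by many transcripts, read 2289 in control clone 1, 508 in control clone 2, 1062 in Prox1-labelled clone 1 and 1387 in Prox1-labelled clone 2. It had the same order of clones as 1439016_x_at at its lowest 3 (control clone 2, Prox1-labelled clone 1, Prox1-labelled clone 2) and its highest (control clone 1), and its part in the reading was not tested. The controls for another mouse repeat, B2, had a smaller gap between the control clones. In control clones 1 and 2, AFFX-MURINE_B2_at read 20127 and 15309.8, and AFFX-MUR_b2_at read 700.4 and 574. In Prox1-labelled clones 1 and 2 they read 16888 and 15969, and 603 and 612.

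Sprr1a, the envelope precursor known also from injured neurons, was expressed in every clone without a difference between the groups beyond the spread of the clones. Its probe set 1449133_at read 928 in control clone 1, 232 in control clone 2, 534 in Prox1-labelled clone 1 and 303 in Prox1-labelled clone 2. As with 1439016_x_at, control clone 1 was the highest and control clone 2 the lowest. Means were 580 ± 492 (SD, n = 2) in the control clones and 419 ± 163 in the Prox1-labelled clones.

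The log2 difference of Sprr1a was -0.21 ± 0.50, and its sign rested on single clones: it was 0.69 without control clone 1, -1.11 without control clone 2, -0.57 without Prox1-labelled clone 1 and 0.16 without Prox1-labelled clone 2. Control clone 1 exceeded control clone 2 by 4.0-fold. Among the probe sets tested 0.257% lay as far apart between the control clones, and for 1439016_x_at, with a 2.66-fold gap, that share was 0.867%. The B1 repeat control differed by 4.51-fold between the same clones, a gap matched by 0.154% of the probe sets tested, while the B2 repeat controls differed less. Between the Prox1-labelled clones, B1 was higher in clone 2 and Sprr1a in clone 1. Sprr1a was at percentile 55.8 to 83.4 of its arrays and above every Bacillus control in all 4.

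Sprr1b, the closest relative of Sprr1a by name, was not above background in any clone. The intensity of 1422672_at was 12.5 in control clone 1, 6.75 in control clone 2, 4.48 in Prox1-labelled clone 1 and 13.4 in Prox1-labelled clone 2. Between 14 and 21 of the 27 Bacillus controls read higher on each array, so no fold is given. Sprr1b was the 1 probe set of the 4 that did not pass the filter on low values.

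Of the 4 probe sets, 1 had groups that did not overlap, the _a_at probe set. Over all probe sets tested, groups did not overlap at 46.2%, higher in the Prox1-labelled clones at 23.9% and lower at 22.3%. By limma with Benjamini-Hochberg adjustment at 0.05, 0.103% of probe sets tested were called, 0.0944% higher and 0.00858% lower.

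The 7 other Sprr genes that the annotation names alone at a probe set read between 5.18 and 209. Sprr2k was the 1 above the highest Bacillus control on all 4 arrays, where the control clones read 183 and 167 and the Prox1-labelled ones 159 and 209. Its log2 difference was 0.05 ± 0.22 (limma adjusted p = 0.949), and it was the 1 of the 7 that could be tested. Sprr3, an Sprr gene of oral and oesophageal epithelium, read 30.7 and 95.9 against 129 and 110.3, and exceeded the highest Bacillus control in the Prox1-labelled clones alone. Its log2 difference of 0.66 ± 0.33 lay below the filter. Sprr2f read 46.4 and 27.0 against 55.6 and 63.7, with 1 array above the highest Bacillus control, in control clone 1. That control was lowest there, at 45.3 against 88.4 to 101 on the other arrays. In the Prox1-labelled clones 1 of the 27 Bacillus controls read higher than Sprr2f on each array. Sprr2h also exceeded the highest Bacillus control in control clone 1 alone, at 46.1 against 17.9 to 21.8 in the other clones. Sprr2d, Sprr2i and the pseudogene Sprr2j-ps did so on 0 arrays, with readings from 5.18 to 27.1.

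Genes that flank the Sprr stretch on chromosome 3 were mostly dim too. Of the nearest 8 genes with a probe set on either side, a set chosen after the values had been seen, 2 of 16 passed the filter and 0 were called. S100a6, which encodes the calcium-binding protein calcyclin, read 4738 and 5227 without the Prox1 plasmid and 4649 and 4319 with it, a log2 difference of -0.15 (adjusted p = 0.745). Lor, the gene of loricrin, the main envelope protein, read 321 and 293 against 208 and 98.5 at 1420183_at (-0.88 ± 0.28, adjusted p = 0.224). The 2 other probe sets of Lor gave 0.01 and -0.06 and lay below the filter. Ivl, the involucrin gene on the other flank, read 24.3 and 8.15 against 19.8 and 7.47 and exceeded the highest Bacillus control on 0 arrays.

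Partners and possible regulators of the Sprr genes were examined in 12 lists, covering 71 tested genes. By limma 0 of the 71 were called, and 15 had an unadjusted p under 0.05, where 1693 of all 11656 probe sets did. The median log2 difference over all probe sets tested was 0.01. Of the 71, 5 passed the filter on low values only through the Prox1-labelled clones (Bcl3, Lifr, Nts, S100a1, Sox17) and 1 only through the control clones (Lcn2), so that a difference was built into their passing. Without a clone, fits in which a group is left with 1 array and its spread is assumed to equal that of the other, the number called among the 71 was 2 without control clone 1, 15 without control clone 2, 2 without Prox1-labelled clone 1 and 3 without Prox1-labelled clone 2. The medians given below moved as well on leaving out a clone: from -0.06 to 0.29 for the S100 genes, 0.14 to 0.27 for envelope partners, 0.12 to 0.24 for AP-1 factors, -0.06 to 0.09 for the squamous factors, -0.04 to 0.11 for the gp130 pathway and 0.08 to 0.33 for the genes of injured neurons.

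Of 18 other genes of the epidermal differentiation complex on the array, 6 exceeded the highest Bacillus control on all arrays, 5 on some and 7 on none. Filaggrin (Flg) and hornerin (Hrnr) were among the latter. In this list 2 genes were tested, Lor and Lce1i (-0.09 ± 0.22, adjusted p = 0.895), and 0 were called. Of 11 S100 genes 4 were tested, with a median of 0.12 and 0 calls. S100a1 gave 0.55 ± 0.21 (adjusted p = 0.28), while its dimmer probe set gave -0.29, and S100a13 gave 0.22 (adjusted p = 0.737).

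Of 22 cornified envelope partners and crosslinking enzymes, 4 were tested, with a median of 0.32 and 0 calls. Cst6, a cysteine protease inhibitor of the cornified layer, gave -0.73 ± 0.29 (adjusted p = 0.29), and Anxa1, annexin A1, gave 0.31 ± 0.19 (adjusted p = 0.502). The keratinocyte transglutaminase gene Tgm1 exceeded the highest Bacillus control on 0 arrays, and Tgm3 read 121 and 177 against 99.8 and 141. Dsp, which encodes the desmosomal protein desmoplakin and was singled out after its values were seen, read 14.3 and 11.6 in control cells at 1427610_at, against 123 and 67.8 in Prox1-labelled clones 1 and 2. Only the reading of Prox1-labelled clone 1 exceeded the highest Bacillus control, and its 2 other probe sets gave log2 differences of 0.24 and 0.06.

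Epithelial genes were mostly at low levels in both groups, and 1 of 25 was tested. The summed intensity of the 25 epithelial genes on the array was 2218 and 1658 on the control arrays and 1521 and 1655 on the Prox1-labelled arrays. The control sums were raised by a single gene, Lcn2: without it the other 24 summed to 1307 and 1342 on the control arrays and to 1454 and 1515 on the Prox1-labelled arrays. Of the 25, 12 exceeded the highest Bacillus control on 0 arrays, Epcam, Cdh1, Krt18, Krt19 and Cldn7 among them, and 13 did so on at least 1. Groups did not overlap at 10 of the 25, 6 of them higher in the Prox1-labelled clones (Krt16, Krt20, Cdh1, Epcam, Ocln, Dsg2) and 4 lower (Krt5, Krt17, Lcn2, Spint1). The share without overlap among all probe sets tested was 46.2%, with 23.9% higher and 22.3% lower in those clones. That share covers probe sets that passed the filter on low values, which the other 24 genes beside Lcn2 did not, so the sets are unlike. Krt16, Cdh1 and Epcam among the higher genes, and Krt17 among the lower, exceeded the highest Bacillus control on 0 arrays. Krt20, a keratin of gut and bladder epithelium, read 24.5 and 69.9 against 99.9 and 114 and exceeded the highest Bacillus control in both Prox1-labelled clones and in neither control clone. The part of these genes in the reading of the _a_at probe set was not tested. Lcn2, the secreted iron-carrier-binding protein lipocalin 2 and the single tested gene of this list, read 910.4 and 316 on the control arrays, against 66.9 and 139.6 on the others (-2.01 ± 0.42, adjusted p = 0.128). Like 1439016_x_at and Sprr1a it was highest in control clone 1. Leukocyte genes (13 on the array, 1 tested) summed to 947 to 1236 over the 4 arrays and fibroblast and mural genes (14, 3 tested) to 1194 to 1538, with 0 calls. Csf1r, a leukocyte receptor gene, gave 0.10 (adjusted p = 0.906), though a dimmer probe set of it below the filter gave -0.91, and Acta2 and Des, genes of contractile cells, gave -0.32 (adjusted p = 0.629) and -0.21 (adjusted p = 0.761).

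AP-1 factors, which bind Sprr promoters in keratinocytes, were well expressed. Of 10 genes 8 were tested, 6 with a positive log2 difference, a median of 0.24 and 0 calls. Fosl1, which encodes Fra-1, read 3656 and 1965 in control clones 1 and 2, against 1450.4 and 1592 (-0.80 ± 0.27, adjusted p = 0.245). Its other probe set gave -0.81. Atf3 gave 0.53 ± 0.24 (adjusted p = 0.356). Of 20 Ets, Krüppel-like and other squamous factors 10 were tested, 5 positive and 5 negative, with a median of -0.01 and 0 calls. Klf4, a factor of epidermal barrier formation, read 383 and 581 against 956 and 859 (0.87 ± 0.23, adjusted p = 0.172), and Klf6 gave -0.38 (adjusted p = 0.428).

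The gp130 and STAT3 pathway, through which cytokines induce Sprr2a in other cells, was present in both groups. Of 24 genes 17 were tested, 9 positive and 8 negative, with a median of 0.03 and 0 calls. Lifr, the receptor subunit for LIF that pairs with gp130, read 111 and 93.0 in control cells, against 454 and 290.1 in Prox1-labelled ones (1.47 ± 0.25, adjusted p = 0.0878). The groups did not overlap, and the 2 other probe sets of Lifr lay below the filter at 0.03 and 0.39. The kinase gene Jak1 gave 0.61 ± 0.18 (adjusted p = 0.206), with its other probe sets at 0.53 and 0.90.

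Values on the remaining steps of that pathway went in different directions. Il6st, the gene of gp130 itself, read 691 and 744 against 489 and 386 (-0.67 ± 0.20, adjusted p = 0.207), and Stat3 read 1109 and 1471 against 1453 and 1421 (0.16, adjusted p = 0.77). Socs3, the feedback inhibitor induced by STAT3, read 685 and 536 against 273 and 421 (-0.76 ± 0.24, adjusted p = 0.223), while its other probe sets gave -0.46 and 0.10. Il6st and Socs3 were named after their values were seen.

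Genes induced with Sprr1a in injured neurons gave 0 calls among 7 tested of 17 on the array, with a median of 0.29. Nts, which encodes neurotensin, read 154 and 169 against 369.7 and 519.8 (1.22 ± 0.23, adjusted p = 0.106). Gap43, the growth cone protein gene that marks regrowing axons, exceeded the highest Bacillus control on 0 arrays. Of 18 endothelial genes 15 were tested, 14 of them positive, with a median of 0.19 and 0 calls, where 51.5% of all probe sets tested were positive. Leaving out control clone 1 gave a median of 0.03 here, and leaving out control clone 2 gave 0.47. The 2 with the smallest unadjusted p were Flt1 (1.58 ± 0.38, adjusted p = 0.164), whose other probe sets gave 0.17 and 0.54, and Tek (0.92 ± 0.23, adjusted p = 0.166).

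**Figure D3:**
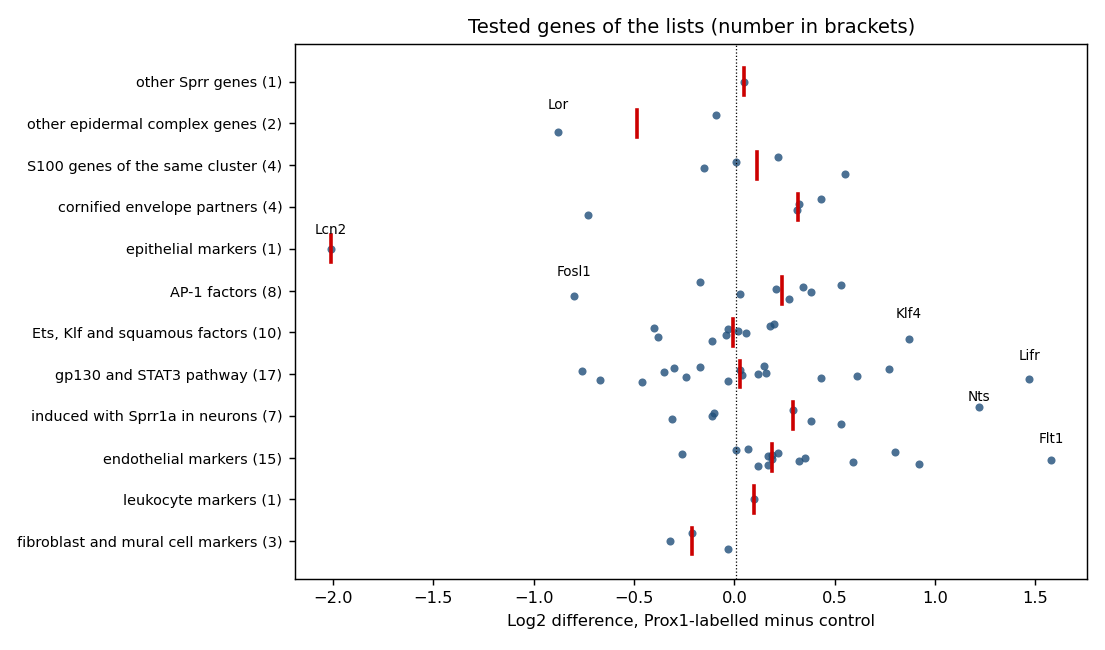
Log2 differences (Prox1-labelled minus control) of the tested genes of each list, 1 point per gene, with the list's median as a red bar and the median of all probe sets tested, 0.01, as a dotted line. Lcn2 stands alone at -2.01, and Flt1, Lifr and Nts lie highest, at 1.58, 1.47 and 1.22.

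The probe sets whose pattern over the 4 arrays was nearest to that of the _a_at probe set were found by Euclidean distance between log2 values centred on their mean. They were, among tested probe sets with 1 gene, 1449906_at of Selp, the endothelial adhesion receptor P-selectin (distance 1.11), 1427482_a_at of Car8, a carbonic anhydrase-related protein (1.21), 1417455_at of the ligand gene Tgfb3 (1.22), 1429177_x_at of the endothelial transcription factor gene Sox17 (1.26) and 1420558_at of Selp (1.27). The median distance over all tested probe sets was 3.13. Sox17 at this probe set read 31.9 and 37.9 in control cells, against 184 and 325 in Prox1-labelled ones (1.84 ± 0.28). As for the _a_at probe set, its control readings lay under the highest Bacillus control and Prox1-labelled clone 2 was the higher of its pair. The brighter Sox17 probe set, 1421657_a_at, gave 0.80 ± 0.23. The nearest patterns were picked for likeness to a group difference, so their own differences were built into the choice. Sox17 at 1429177_x_at and Tgfb3 also passed the filter only through the Prox1-labelled clones. The distances of 1439016_x_at and Sprr1a from the _a_at probe set were 2.88 and 3.65, ranks 2418 and 11069 among the 11655 others. These likenesses rest on 4 arrays and mostly follow the size of the group difference.

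**Figure D4:**
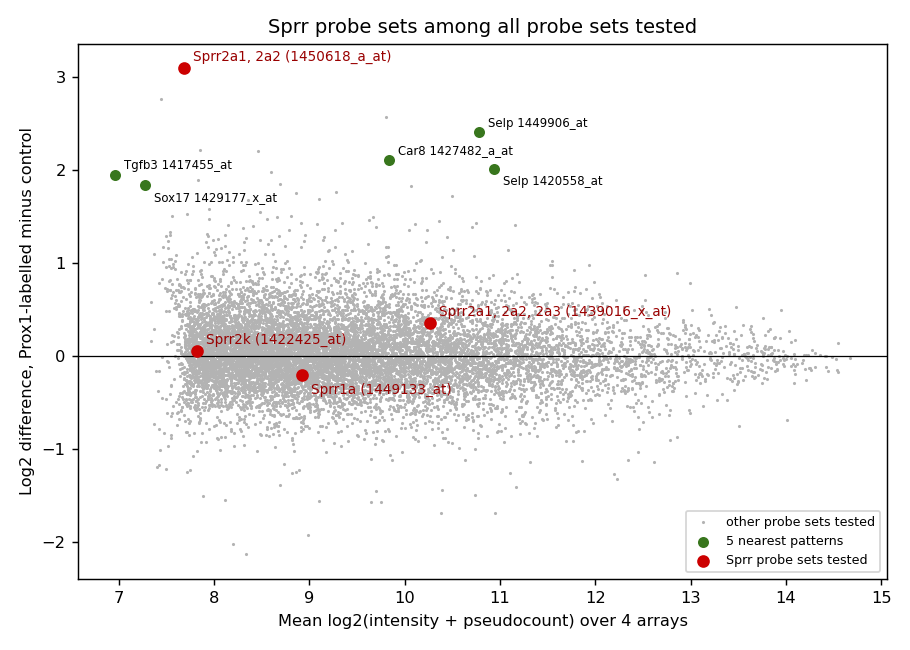
Log2 difference (Prox1-labelled minus control) against mean log2(intensity + 47) over the 4 arrays for the 11656 probe sets tested; red points are the tested Sprr probe sets and green points the 5 nearest patterns. The _a_at probe set lies at 3.09, above every other probe set, while 1439016_x_at, Sprr1a and Sprr2k lie within the bulk at 0.35, -0.21 and 0.05.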

How the data were processed

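Values were the deposited probe set intensities of 4 one-colour arrays on a linear scale, made with MAS5 per the submitters' processing notes (version not given in the sources used here); columns shared a trimmed mean of 500.0, so no further scaling was applied. Groups came from the sample titles. Values were analysed as log2(intensity + 47). Probe sets above their array's median in at least 2 arrays were tested with limma 3.58.1 in R 4.3.3 (lmFit, eBayes with an intensity trend, 2-sided), Benjamini-Hochberg adjusted over 11656 probe sets at 0.05; differences and standard errors of probe sets below the filter come from that fit without it. The procedure was tested on simulated data. The brightest probe set stood for a gene in lists. By rule, the Sprr genes, the tested genes called or the 2 with the smallest unadjusted p of each list, the cell type markers and the 5 nearest patterns were named; all other genes were chosen after their values were seen. Members and lists were chosen with earlier results of these data known. The platform annotation supplied gene names, and RefSeq the windows. P-values set the group difference against the spread inside groups, in which clone, culture and array handling cannot be separated. In limma that spread also draws on the other probe sets, and the number of arrays limits the precision. Alternatives were quantile normalization, median centring, other pseudocounts, filters and variance models, a clone-number block and leaving out each clone.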

Additional observations from a re-analysis of the deposited data

How the results depend on the processing

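The log2 difference of Sprr2a at the _a_at probe set stayed positive in every alternative run; it was 4.55 without a pseudocount, 1.89 with the pseudocount at the median, and 2.76 to 3.42 on leaving out a clone. With the filter at the 75th percentile it was not tested and gave no value. The number of probe sets called was 12, and 0 without the filter (with 2300 at an unadjusted p under 0.05), 4 under quantile normalization, 7 with the robust variance model, and from 42 to 1150 on leaving out a clone, fits whose reduced group holds no spread of its own. With the clone number as a replicate block it was 110, 12 of them the same probe sets. The gap between the control clones and that between the Prox1-labelled clones had a correlation of -0.00909 over probe sets tested. A value taken over all of them cannot show whether same-numbered clones were handled together, and the labels give only the number. Among list genes the 0 calls became 4 with the replicate block (Flt1, Lcn2, Lifr, Nts, of which Lcn2, Lifr and Nts passed the filter only through the group where they are high) and from 2 to 15 on leaving out a clone. Signals near the Bacillus controls, those of Sprr1b and of the _a_at probe set in control clones, limit every fold given for them.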
